A study of Mus musculus with 10 samples.

Results

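The vascular endothelial growth factor (VEGF) and angiopoietin systems are represented here by 10 genes of the 48397 gene symbols in the count tables, chosen by name. They are the ligand genes Vegfa, Vegfb, Vegfc and Pgf with the receptor genes Kdr and Flt1, and the ligand genes Angpt1 and Angpt2 with the receptor genes Tek and Tie1. All 10 were found by symbol, and all 10 passed the filter on low counts that left 15175 genes for testing. RNA came from the left atrium of wild-type mice that had transverse aortic constriction (TAC), a surgical narrowing of the aorta that overloads the heart, or a sham operation. Animals were 2 months old at surgery, and tissue was taken 2 weeks later. The design text adds that the mice were C57BL/6J males and gives the tissue as left appendage, where the labels of the samples have left atrium. There were 5 TAC and 5 Sham libraries, and n counts libraries throughout. Whether each library is a separate animal is not stated in the labels, and every p-value therefore rests on library-to-library spread, which may be technical.

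VEGF ligands are secreted proteins that act on tyrosine kinase receptors of endothelial cells. VEGFA signals for growth, survival and permeability mainly through KDR (VEGFR2), while FLT1 (VEGFR1) binds VEGFA, VEGFB and placental growth factor and is known as a brake that holds VEGFA away from KDR. Angiopoietin 1 activates the receptor TIE2, the product of Tek, and keeps vessels quiescent. Angiopoietin 2, which endothelial cells release when activated, binds the same receptor and often counters angiopoietin 1, and TIE1 is a related receptor that modulates TIE2. In the heart these systems link muscle, capillaries and mural cells.

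Total counts over genes ran from 29493200 to 41358617 in TAC libraries and from 17117306 to 43956384 in Sham libraries, of which Sham replicates 1 and 2 were the shallowest. Mitochondrially encoded genes took 9.31% to 14.2% of counts in TAC and 14.6% to 17.4% in Sham, with TAC replicate 1 the highest of its group. The atrial myosin light chain genes Myl7 and Myl4 stood at means of 2158 and 6409 CPM in TAC and 8888 and 11628 CPM in Sham, so the defining markers of atrial muscle were present in both groups. CPM are counts scaled to the same effective library total. Of all tested genes 28.9% were called higher and 27.9% lower in TAC, 56.8% in either direction, by edgeR's quasi-likelihood test at a Benjamini-Hochberg adjusted p under 0.05. With such a broad background, a call by itself says little about any gene group. Of the 10 members 3 were called higher and 5 lower, and 2 were not called. The groups' CPM did not overlap for 6 members, against 41.7% of all tested genes. TAC lay above Sham in 3 of them, where 21.5% of all tested genes did, and below it in 3, where 20.2% did. A called log2 fold change of at least 1 was seen for 2 members (11.7% of all tested genes) and one of at most -1 for 1 member (8.1%). The median log2 fold change (TAC over Sham) was -0.30 over the 10 members and 0.01 over the 15175 genes.

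The ligands moved in opposite directions. In both families 1 main ligand was higher and its counterpart lower in TAC atria. Vegfa and Vegfc rose 1.72-fold and 2.22-fold while Vegfb and Pgf fell, and Angpt2 rose 3.03-fold while Angpt1 fell. The VEGF receptor genes Flt1 and Kdr fell, and the angiopoietin receptor genes Tek and Tie1 were not called. The changes of Pgf and Kdr and the missing call of Tie1 depended on the scaling between libraries, as given with each gene.

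**Figure D1:**
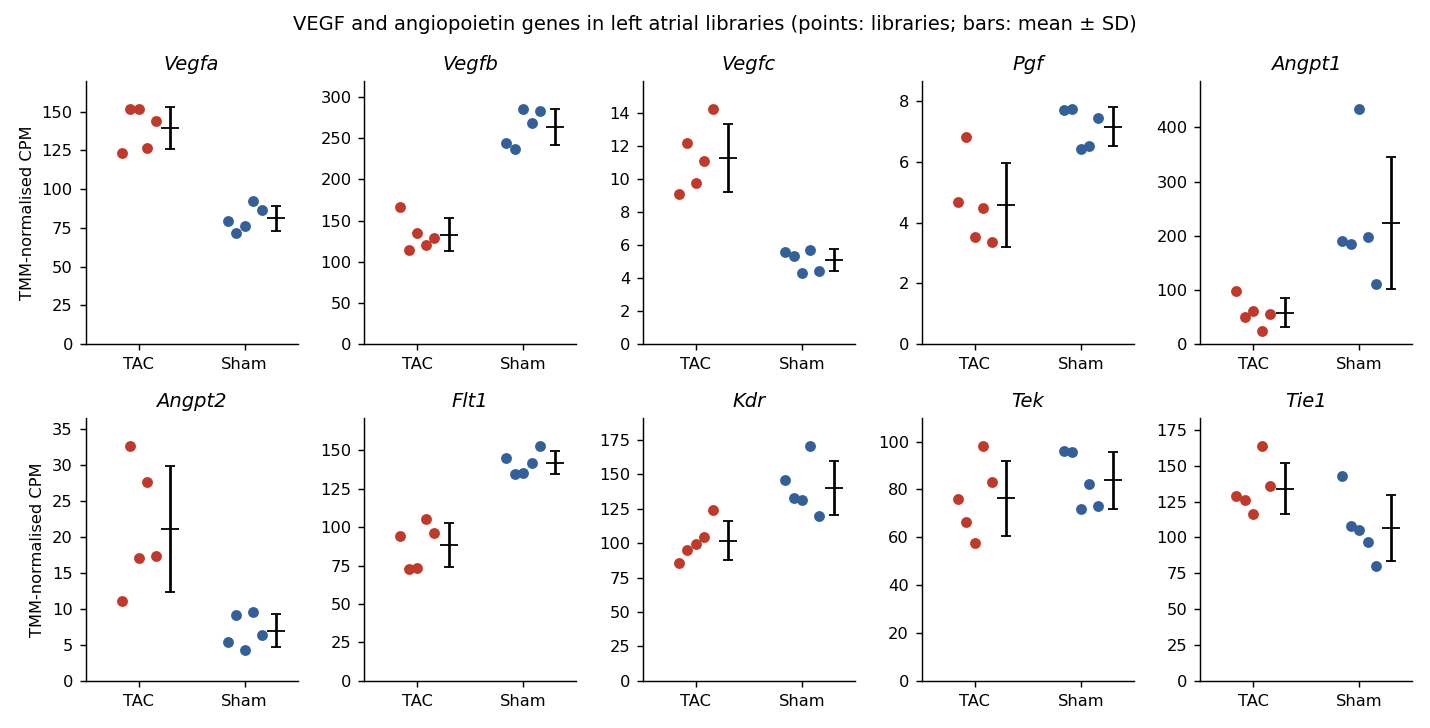
TMM-normalised CPM (linear axes from 0) of the 10 genes, with TAC to the left of Sham. Each point is 1 library (replicates 1 to 5 from left to right), and bars show mean ± SD (n = 5 each). The groups are apart for Vegfa, Vegfb, Vegfc, Angpt1, Angpt2 and Flt1 and overlap for Pgf, Kdr, Tek and Tie1, and 1 Sham library of Angpt1 stands at 433.

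Vegfa encodes the central angiogenic ligand and lies on the minus strand of chromosome 17, 46016993 to 46032369 (GRCm38). Its CPM was 124, 152, 152, 127 and 144 in TAC replicates 1 to 5, against 79.6, 71.4, 76.6, 92.2 and 86.3 in Sham replicates 1 to 5. All TAC libraries lay above all Sham libraries, with means of 139 ± 13.5 and 81.2 ± 8.18 CPM (SD, n = 5 each). The log2 fold change was 0.78 (SE 0.09, adjusted p = 2.9e-05). Vegfb encodes a ligand of FLT1 that is abundant in heart muscle, on chromosome 19, 6982473 to 6987651. It stood at 166, 115, 134, 119.8 and 128 CPM in TAC and at 245, 236, 285, 269 and 283 CPM in Sham. Its TAC libraries all lay below its Sham libraries (log2 fold change -0.99, SE 0.11, adjusted p = 1.7e-05), and the level in TAC was 0.50 of that in Sham. TAC replicate 1 was the TAC library nearest the Sham mean for Vegfa, Vegfb, Vegfc, Angpt1 and Angpt2, 5 of the 8 called members.

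Within each library the ratio of Vegfa to Vegfb counts does not depend on scaling between libraries. Its mean log2 value was 0.08 ± 0.31 in TAC and -1.70 ± 0.13 in Sham (SD, n = 5 each), a 3.43-fold difference without overlap (exact two-sided permutation p = 0.0079, the smallest 5 against 5 libraries can give, adjusted p = 0.0125 over 11 ratios). Vegfa was higher and Vegfb lower in every TAC library than in any Sham library, so the ratio had to separate. Its p was thereby fixed and adds nothing to the tests of the single genes. Per kilobase of merged exons, Vegfa stood at 0.395 of Vegfb in TAC and at 0.115 in Sham, so Vegfb was the more abundant of the pair in both groups.

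Cardiomyocyte genes were lower in the same libraries. All 9 genes of a cardiomyocyte marker list were called lower (6 when scaled by library size alone), and their summed CPM ran from 36306 to 49551 in TAC and from 82131 to 98075 in Sham. The most abundant of them was Myh6, the atrial myosin heavy chain gene, at means of 11997 CPM in TAC and 33656 in Sham. Log2 fold changes of the 9 genes ran from -2.04 (Myl7) to -0.52 (Actc1), on both sides of the -0.99 of Vegfb. A ratio to their sum therefore depends on which of them weigh most, and no other denominator was tried. In bulk tissue fewer cells of a type and less RNA per cell cannot be told apart. Relative to that summed list, in a ratio chosen after the values were seen and not tested, Vegfb counts differed by 0.12 on the log2 scale with overlapping groups (mean log2 ratio -8.27 ± 0.12 in TAC and -8.39 ± 0.09 in Sham). The same ratio for Vegfa was higher by 1.90, at -8.19 ± 0.31 in TAC and -10.09 ± 0.13 in Sham, without overlap.

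The promoter windows of Vegfa and Vegfb are shown because, of the gene pairs with RefSeq windows, this one had the largest change in its within-library ratio. They are the 250 bases before the outermost RefSeq start in GRCm38.p6, at chr17:46032378-46032627 and chr19:6987652-6987901, both on the minus strand. Sequences are written 5′ to 3′ along the gene, and capitals mark matches on either strand to GGGCGG (GC box), CCGGAA (the core bound by ETS factors), ACGTG (the core bound by hypoxia-inducible factors) or TATAAA (the core promoter box named for its letters), of which neighbouring GC box matches can overlap.
Vegfa: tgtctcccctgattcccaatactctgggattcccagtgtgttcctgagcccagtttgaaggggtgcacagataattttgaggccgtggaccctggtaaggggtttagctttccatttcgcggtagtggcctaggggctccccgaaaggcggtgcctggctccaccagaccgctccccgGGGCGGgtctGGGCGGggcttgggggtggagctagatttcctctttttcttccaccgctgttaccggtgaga
Vegfb: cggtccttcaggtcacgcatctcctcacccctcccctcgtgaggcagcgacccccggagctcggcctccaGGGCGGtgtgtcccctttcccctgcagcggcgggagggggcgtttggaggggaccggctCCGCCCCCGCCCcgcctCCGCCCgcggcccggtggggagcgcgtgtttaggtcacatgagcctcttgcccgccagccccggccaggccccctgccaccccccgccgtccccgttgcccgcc
The GC box letters occurred at 2 places for Vegfa and at 4 for Vegfb, and the other motifs at none. Over the 8 members with a RefSeq window, GGGCGG occurred in 6, CCGGAA in 1, TATAAA in 1 and ACGTG in 0. The comparison set of 32851 windows took every listed start of a gene and not only the outermost, so it was chosen differently. Its shares were 32.7%, 12% and 12.4% for the first 3, and 16.6% for ACGTG. A missing match says only that these letters are not in this window.

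Vegfc, the ligand best known for lymphatic growth through FLT4 (VEGFR3), lies on chromosome 8, 54077606 to 54187096, and was a low-abundance gene. It had 9.07, 12.2, 9.74, 11.1 and 14.2 CPM in TAC against 5.59, 5.37, 4.32, 5.72 and 4.43 CPM in Sham. The groups were apart (log2 fold change 1.15, SE 0.15, adjusted p = 5.5e-05). From 329 to 539 reads per TAC library and 84 to 222 per Sham library stood behind these values. Whether Vegfc changed more than Vegfa was not settled, since their within-library ratio differed by 0.35 on the log2 scale (exact permutation p = 0.048, adjusted p = 0.058 over 11 ratios). That difference passed at 0.43 without TAC replicate 3 (adjusted p = 0.039) and at 0.42 without Sham replicate 2 (adjusted p = 0.039).

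Pgf encodes placental growth factor, a ligand of FLT1 alone among the VEGF receptors, and lies on chromosome 12, 85166635 to 85177790. It had 4.70, 6.83, 3.52, 4.49 and 3.35 CPM in TAC against 7.70, 7.73, 6.41, 6.52 and 7.43 CPM in Sham. TAC replicate 2 lay inside the Sham range and the other TAC libraries below it (log2 fold change -0.64, SE 0.19, adjusted p = 0.012). Scaled by library size alone, Pgf missed the threshold (-0.28, adjusted p = 0.21), as it did without the 2 shallow Sham libraries (-0.57, adjusted p = 0.061). Against Vegfa in the same library Pgf was 2.77-fold lower in TAC, with mean log2 ratios of -4.97 ± 0.43 and -3.50 ± 0.23 in TAC and Sham (exact permutation p = 0.0079, adjusted p = 0.0125).

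**Figure D2:**
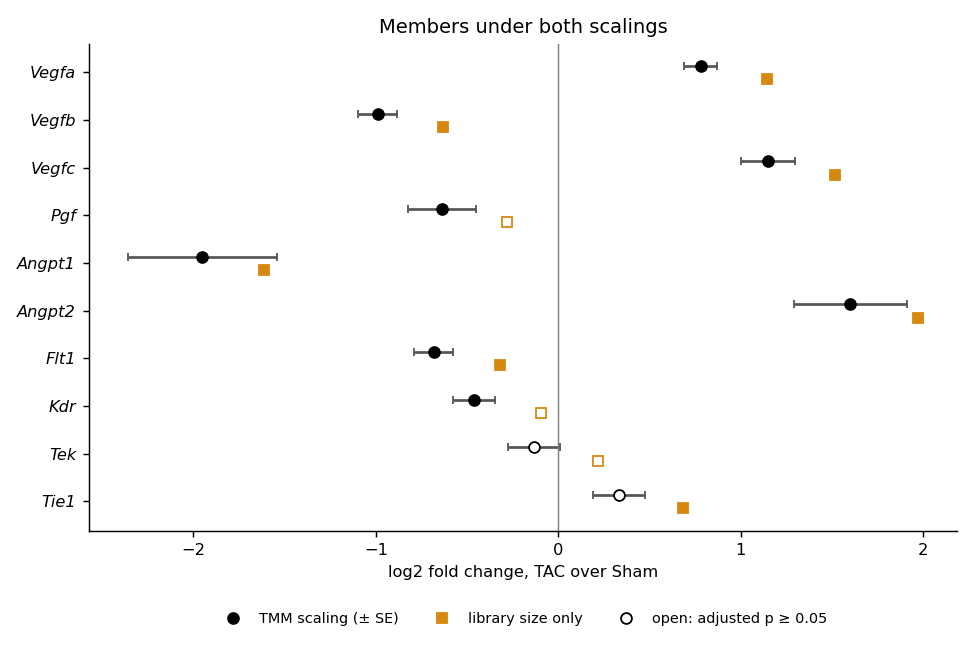
Log2 fold changes (TAC over Sham) of the 10 genes with TMM scaling (circles, ± SE) and by library size alone (squares), where open symbols have an adjusted p of 0.05 or more. Every square lies to the right of its circle, which takes Pgf and Kdr to -0.28 and -0.10 without a call, and Tie1 to 0.68 with one.

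Scaling set part of this picture. When libraries were scaled by size alone, the 15175 genes had a median of 0.37 instead of 0.01, and the members split into 4 higher and 3 lower, where 51% of all tested genes were higher and 12.7% lower. Vegfa, Vegfc and Angpt2 stayed higher and Vegfb, Flt1 and Angpt1 lower under that scaling. Pgf and Kdr lost their calls, Tie1 gained one and the log2 fold change of Tek had the opposite sign (0.22, against -0.13 with TMM factors) without passing the test.

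Flt1 and Kdr encode the VEGF receptors of blood endothelium and lie on chromosome 5, at 147561604 to 147726011 and 75932827 to 75978458. Flt1 stood at 94.5, 72.7, 73.8, 105 and 96.0 CPM in TAC and at 145, 134, 136, 142 and 153 CPM in Sham. The groups did not overlap (log2 fold change -0.68, SE 0.11, adjusted p = 0.00022). Gene counts do not separate membrane-bound from soluble FLT1 transcripts. Kdr stood at 85.8, 94.8, 99.7, 105 and 124 CPM in TAC and at 146, 133, 132, 171 and 119.7 CPM in Sham. TAC replicate 5 lay above Sham replicate 5 and the other TAC libraries below all Sham libraries (log2 fold change -0.46, SE 0.12, adjusted p = 0.0050). Scaled by library size alone, Kdr differed by -0.10 (adjusted p = 0.56). The ratio of Flt1 to Kdr was not shown to differ, at mean log2 values of -0.21 ± 0.26 in TAC and 0.03 ± 0.22 in Sham (exact permutation p = 0.17, adjusted p = 0.18).

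Endothelial markers differed by list. Of 16 markers shared by most endothelial cells 9 were called higher and 0 lower (11 and 0 by library size alone), with a median log2 fold change of 0.38, and their summed CPM was 1825 ± 340 in TAC and 1564 ± 299 in Sham with overlapping ranges. The most abundant of them was Eng. The cardiac capillary list split. Of its 8 genes 4 were called lower, namely Cd36 (log2 fold change -0.93), Aqp1 (-1.49), Car4 (-2.34) and Timp4 (-2.92). Fabp4 (0.56) and Gpihbp1 (0.51) were called higher, and Rgcc (0.16) and Btnl9 (-0.49) were not called. The summed CPM of the list was 1044 ± 132 in TAC and 1779 ± 243 in Sham, without overlap. Most of that sum was Cd36, at means of 605 CPM in TAC and 1154 in Sham. The part of capillary cells in the lower Flt1 and Kdr was not tested. Against the sum of the 16 markers in the same library, Flt1 was 0.529 times and Kdr 0.623 times as high in TAC as in Sham. The mean log2 ratios were -4.36 ± 0.11 in TAC and -3.44 ± 0.27 in Sham for Flt1, and -4.15 ± 0.21 in TAC and -3.47 ± 0.32 in Sham for Kdr. Both were without overlap (exact permutation p = 0.0079 and adjusted p = 0.0125 each). With Pecam1 and Cdh5 as the only denominator the Kdr difference was -0.48 and missed the threshold (adjusted p = 0.055). Pecam1 itself was at 281 CPM in TAC and 367 in Sham without a call (log2 fold change -0.38, adjusted p = 0.11), and Cdh5, the endothelial cadherin gene, rose (0.65, adjusted p = 0.0015).

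The promoter windows of the paired VEGF receptor genes, both lower in TAC, are chr5:147726012-147726261 for Flt1 and chr5:75978456-75978705 for Kdr, on the minus strand, with capitals marking the same motifs.
Flt1: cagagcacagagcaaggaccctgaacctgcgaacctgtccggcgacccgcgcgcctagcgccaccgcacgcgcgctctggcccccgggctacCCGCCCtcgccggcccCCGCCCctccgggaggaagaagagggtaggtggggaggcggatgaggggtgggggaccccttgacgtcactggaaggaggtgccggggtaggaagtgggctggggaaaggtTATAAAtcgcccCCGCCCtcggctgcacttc
Kdr: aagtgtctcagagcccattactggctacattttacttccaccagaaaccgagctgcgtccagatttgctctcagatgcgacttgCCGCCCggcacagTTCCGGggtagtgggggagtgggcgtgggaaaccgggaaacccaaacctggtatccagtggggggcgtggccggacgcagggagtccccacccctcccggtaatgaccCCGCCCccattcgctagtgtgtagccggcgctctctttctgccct
Kdr held the single CCGGAA match among the members, which is written here on the opposite strand as TTCCGG and begins 153 bases before the start. Flt1 held the single TATAAA match, and GC box letters occurred at 3 places in Flt1 and 2 in Kdr.

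Angpt1, the stabilising ligand of TIE2, lies on chromosome 15, 42424723 to 42676977, and showed the largest decrease of the 10 genes. It stood at 99.0, 49.8, 60.9, 24.3 and 55.2 CPM in TAC and at 191, 185, 433, 197 and 111 CPM in Sham. All TAC libraries lay below all Sham libraries, though both groups were widely spread (log2 fold change -1.95, SE 0.41, adjusted p = 0.0019). Sham replicate 3 stood far above every other library, and without it the log2 fold change was -1.57 (adjusted p = 0.0030). Of the exonic bases of Angpt1 14.2% are shared with Gm17473 on the opposite strand, to which 53 reads in TAC and 119 in Sham libraries were assigned. Relative to the summed cardiomyocyte list, Angpt1 counts differed by -0.82 on the log2 scale with overlapping groups (not tested).

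Angpt2, the ligand that opposes it, lies on chromosome 8, 18690263 to 18741562. It stood at 11.1, 32.7, 17.1, 27.6 and 17.4 CPM in TAC and at 5.46, 9.20, 4.35, 9.56 and 6.34 CPM in Sham. The groups were apart, with TAC replicate 1 closest to Sham (log2 fold change 1.60, SE 0.31, adjusted p = 0.0012). Against the summed endothelial markers Angpt2 was 2.53-fold higher in TAC, with mean log2 ratios of -6.51 ± 0.70 in TAC and -7.85 ± 0.62 in Sham and overlapping ranges (exact permutation p = 0.016, adjusted p = 0.022). Without the 2 shallow Sham libraries this difference was 1.24 and missed the threshold (adjusted p = 0.087).

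The ratio of Angpt2 to Angpt1 differed most of the 11 ratios. Its mean log2 value was -1.42 ± 1.27 in TAC and -4.91 ± 1.03 in Sham (SD, n = 5 each), an 11.3-fold difference without overlap (exact permutation p = 0.0079, adjusted p = 0.0125). Since Angpt2 and Angpt1 were each apart between the groups, in opposite directions, the ratio had to separate. This p was thereby fixed and adds nothing to the tests of the single genes. Per kilobase of merged exons Angpt2 stood at 0.529 of Angpt1 on average in TAC, from 0.158 in replicate 1 to 1.60 in replicate 4. In Sham it stood at 0.0468 on average, from 0.0142 to 0.0805. Leaving out any 1 library gave log2 differences from 3.07 to 3.93.

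**Figure D3:**
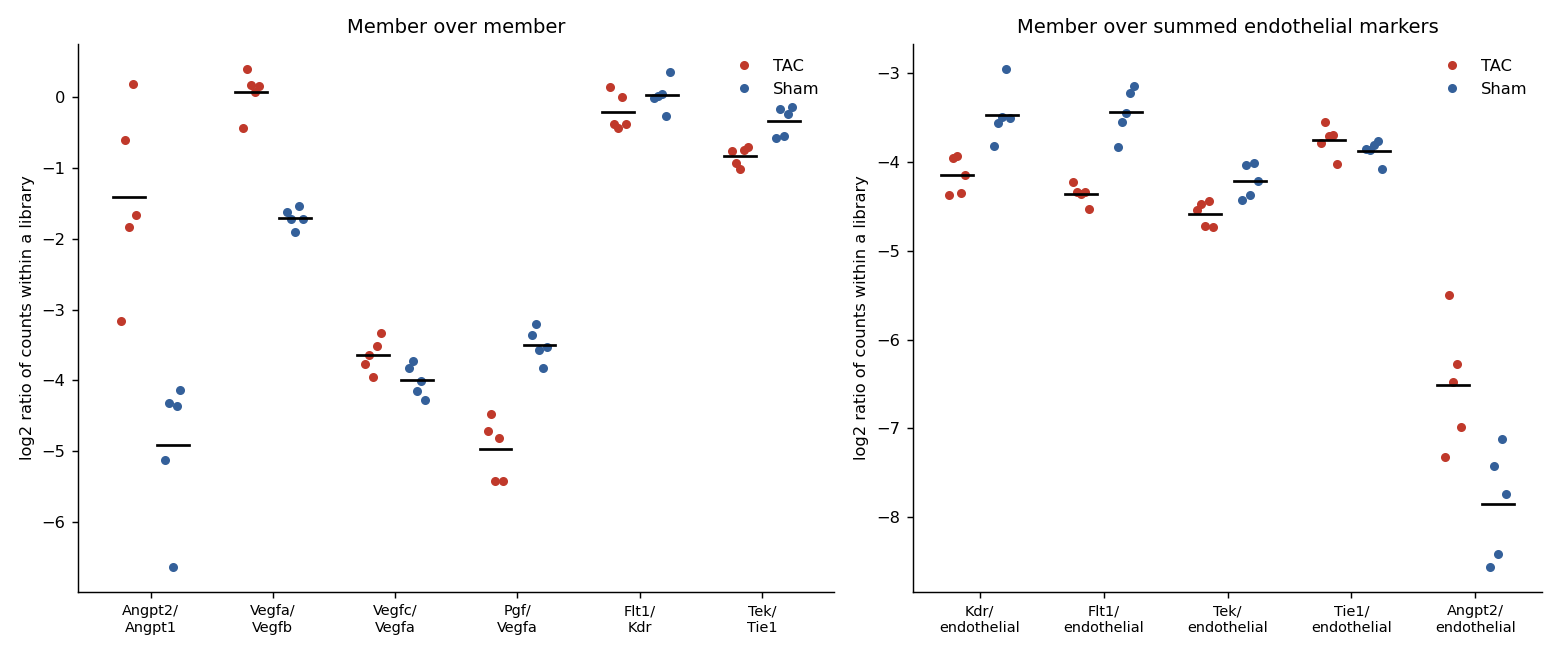
Log2 ratios of counts within each library, for pairs of members (left) and for members over the summed endothelial markers (right), with TAC to the left of Sham, points for libraries and black lines for means (n = 5 each). Angpt2/Angpt1 and Vegfa/Vegfb are higher in all TAC libraries, Pgf/Vegfa, Tek/Tie1 and the endothelial ratios of Kdr, Flt1 and Tek are lower in all of them, and Vegfc/Vegfa, Flt1/Kdr, Tie1/endothelial and Angpt2/endothelial overlap.

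Tek encodes the angiopoietin receptor TIE2 and lies on chromosome 4, 94739289 to 94874976. Its CPM was 76.1, 66.4, 57.8, 98.2 and 82.9 in TAC and 96.1, 95.8, 71.7, 82.3 and 73.0 in Sham. These ranges overlapped widely (log2 fold change -0.13, SE 0.14, adjusted p = 0.44). Tie1 lies on the same chromosome, 118471191 to 118490061, and stood at 129, 126, 116, 164 and 136 CPM in TAC against 143, 108, 105, 96.9 and 80.04 CPM in Sham. Sham replicate 1 lay within the TAC range and the other Sham libraries below it (log2 fold change 0.33, SE 0.14, adjusted p = 0.065). Tie1 was called higher when scaled by library size alone (0.68, adjusted p = 0.0040), with upper-quartile factors (0.38, adjusted p = 0.039), without Sham replicate 1 (0.46, adjusted p = 0.0078) and without both shallow Sham libraries (0.50, adjusted p = 0.010).

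These receptor genes did not keep their proportion. The log2 ratio of Tek to Tie1 was -0.83 ± 0.13 in TAC and -0.33 ± 0.21 in Sham, without overlap (exact permutation p = 0.0079, adjusted p = 0.0125). Relative to the summed endothelial markers Tek was 0.774 times as high in TAC as in Sham, again without overlap (exact permutation p = 0.0079, adjusted p = 0.0125), but with Pecam1 and Cdh5 as the denominator the log2 difference was -0.17 (adjusted p = 0.22). Tie1 relative to the endothelial list differed by 0.12 on the log2 scale (exact permutation p = 0.24). That difference passed at 0.19 without TAC replicate 5 (adjusted p = 0.039) and narrowly, just under the threshold of 0.05, at 0.32 with Pecam1 and Cdh5 as the denominator.

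Levels can be set beside each other per kilobase of merged exons. In both groups Vegfb had the highest level, at 82.7 ± 12.6 CPM per kilobase in TAC and 164 ± 13.8 in Sham. In TAC it was followed by Vegfa (32.5 ± 3.15), Tie1 (27.3 ± 3.67), Tek (16.2 ± 3.29), Kdr (11.3 ± 1.59), Angpt1 (11.1 ± 5.17), Flt1 (6.55 ± 1.07), Angpt2 (5.74 ± 2.37), Vegfc (4.60 ± 0.83) and Pgf (1.58 ± 0.48). The ranges of neighbours in this order overlapped except between Vegfb and Vegfa, Tie1 and Tek, and Vegfc and Pgf. In Sham Angpt1 came second at 42.9 ± 23.5, then Tie1 (21.7 ± 4.67), Vegfa (18.96 ± 1.91), Tek (17.8 ± 2.51), Kdr (15.5 ± 2.15), Flt1 (10.5 ± 0.56), Pgf (2.47 ± 0.22), Vegfc (2.08 ± 0.27) and Angpt2 (1.89 ± 0.62). Neighbours were apart only between Vegfb and Angpt1, Kdr and Flt1, and Flt1 and Pgf. Angpt2 thus held the lowest place in Sham and the eighth in TAC, and Angpt1 the second place in Sham and the sixth in TAC. These levels rest on the exon lengths of GENCODE M21, and the annotation behind the counts is not known here.

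**Figure D4:**
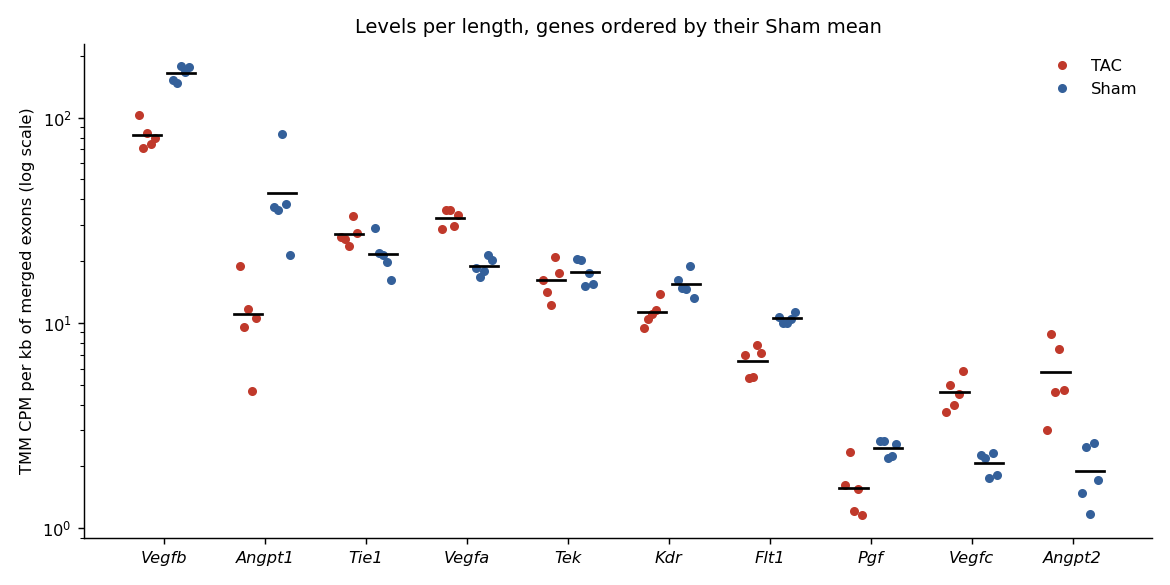
TMM-normalised CPM per kilobase of merged exons (log axis), with TAC to the left of Sham for each gene, points for libraries and black lines for means (n = 5 each). Vegfb is highest in both groups, and Angpt2, lowest in Sham at 1.89, stands at 5.74 in TAC.

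The counts of the further gene lists stand against 28.9% of all tested genes called higher and 27.9% lower with TMM factors, and 51% and 12.7% by library size alone. The rest of the ligand and receptor family was higher or not called. Of 9 further genes 4 rose and 0 fell (7 and 0 by library size alone), with a median log2 fold change of 0.50. Figf, the older symbol of Vegfd, which encodes another ligand of VEGF receptors, rose to 17.8 ± 5.87 CPM in TAC, against 4.76 ± 0.78 in Sham (log2 fold change 1.90, SE 0.24, adjusted p = 5.2e-05). Nrp1, the neuropilin coreceptor gene for VEGFA, rose to 274 ± 55.2 CPM in TAC, against 176 ± 30.4 in Sham (0.64, SE 0.16, adjusted p = 0.0046). Itgav, which encodes an integrin subunit, rose by 0.75 (SE 0.11). Angpt4, the third angiopoietin gene, had 2.25 ± 1.45 CPM in TAC and 0.627 ± 0.249 in Sham (1.79, adjusted p = 0.017), a call lost with limma voom (adjusted p = 0.16) and without both shallow Sham libraries (adjusted p = 0.070). The genes not called were Flt4 (-0.21), Nrp2 (0.26), Ptprb, which encodes the endothelial phosphatase that acts on TIE2 (0.13), Itgb3 (0.50) and Itga5 (-0.29). Flt4, the receptor gene for VEGFC, was at 27.02 ± 4.48 CPM in TAC and 31.3 ± 3.78 in Sham.

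Of 15 genes that mark endothelial tip cells or respond to VEGF 10 (66.7%) rose and 2 fell (12 and 1 by library size alone), with a median log2 fold change of 0.85. Esm1, a secreted proteoglycan gene typical of tip cells, rose to 23.4 ± 5.03 CPM in TAC, against 1.61 ± 0.52 in Sham (log2 fold change 3.84, SE 0.23, adjusted p = 6.0e-07). Unc5b, which encodes a netrin receptor, rose to 179.8 ± 68.3 CPM in TAC, against 27.8 ± 3.65 in Sham (2.69, SE 0.26). The chemokine receptor gene Cxcr4 rose by 1.45 (SE 0.16) and Ramp3, which encodes a partner of adrenomedullin receptors, by 1.74 (SE 0.21). Dll4, the Notch ligand gene of tip cells, fell by 0.36 on the log2 scale (adjusted p = 0.0064), but stood at 0.00 by library size alone. Egr3, an immediate early gene, fell, with a log2 fold change of -2.28 (adjusted p = 0.0032), or -1.58 without Sham replicate 2.

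Genes that process or oppose the ligands changed in both directions. Of 14 tested genes 9 (64.3%) rose and 3 (21.4%) fell (11 and 3 by library size alone), with a median of 0.65, and Plg had too few counts for testing. Mmp2 and Mmp14, matrix metalloproteinase genes, rose by 1.32 (SE 0.13) and 1.70 (SE 0.21). Svep1, a matrix protein gene with 13.9% of its exonic bases shared with Gm26889, rose to 97.3 ± 29.9 CPM in TAC, against 21.3 ± 4.77 in Sham. The angiogenesis inhibitor gene Vash1 rose to 20.8 ± 3.69 CPM in TAC, against 6.24 ± 2.02 in Sham, while its relative Vash2 had 1.57 ± 0.26 CPM in TAC and 11.6 ± 13.8 in Sham (log2 fold change -2.89, adjusted p = 0.0069). Without Sham replicate 5 the Vash2 value was -1.85 (adjusted p = 0.012), and with limma voom the call was lost (adjusted p = 0.064). Mmp9 fell by 2.74 (SE 0.38) and Adamts1, which encodes a protease that sequesters VEGFA, by 1.30 (SE 0.24) on the log2 scale.

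Of 22 signal transducer genes 7 rose and 9 fell, with a median of 0.20. The share that rose, 31.8%, was near the 28.9% of all tested genes, as was the 54.5% by library size alone to its 51%. The share that fell was 40.9%, against 27.9% of all tested genes, and 22.7% by library size alone, against 12.7%. Grb14, an adaptor that binds TIE2, fell to 81.1 ± 12.4 CPM in TAC, against 152 ± 18.2 in Sham. Foxo4 (log2 fold change -0.83, SE 0.10) and the adaptor gene Grb2 (-0.55, SE 0.07) fell, and the kinase genes Prkcb (1.23, SE 0.25) and Mapk3 (0.38, SE 0.09) rose, as did the adaptor genes Sh2d2a (1.86, SE 0.40) and Nck1 (0.24, SE 0.06).

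Of 20 hypoxia genes 11 (55%) rose and 4 fell (14 and 2 by library size alone), with a median of 0.32. The genes of the factors themselves moved apart, since Hif1a rose to 162 ± 25.5 CPM in TAC, against 63.8 ± 3.56 in Sham (log2 fold change 1.35, SE 0.10, adjusted p = 2.1e-06), and Epas1, which encodes HIF2 alpha, fell to 155 ± 19.4 CPM in TAC, against 353 ± 39.4 in Sham (-1.19, SE 0.11, adjusted p = 6.0e-06). Of the known targets of these factors, those that rose included Kdm3a (0.46, SE 0.09), P4ha1 (0.69, SE 0.13) and Adm, which had 13.7 ± 1.92 CPM in TAC and 6.87 ± 1.65 in Sham. Egln1, which encodes a prolyl hydroxylase that marks the factors for breakdown, fell by 0.75 (SE 0.11) on the log2 scale. The decreases of Pdk1 (-0.27) and Car9 (-0.42) depended on the setting: by library size alone neither passed and Pdk1 stood at 0.09, without TAC replicate 5 Pdk1 stood at -0.23 (adjusted p = 0.063), and Car9 missed the threshold with 8 of the 10 libraries left out in turn, every one except Sham replicate 1 and TAC replicate 2.

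**Figure D5:**
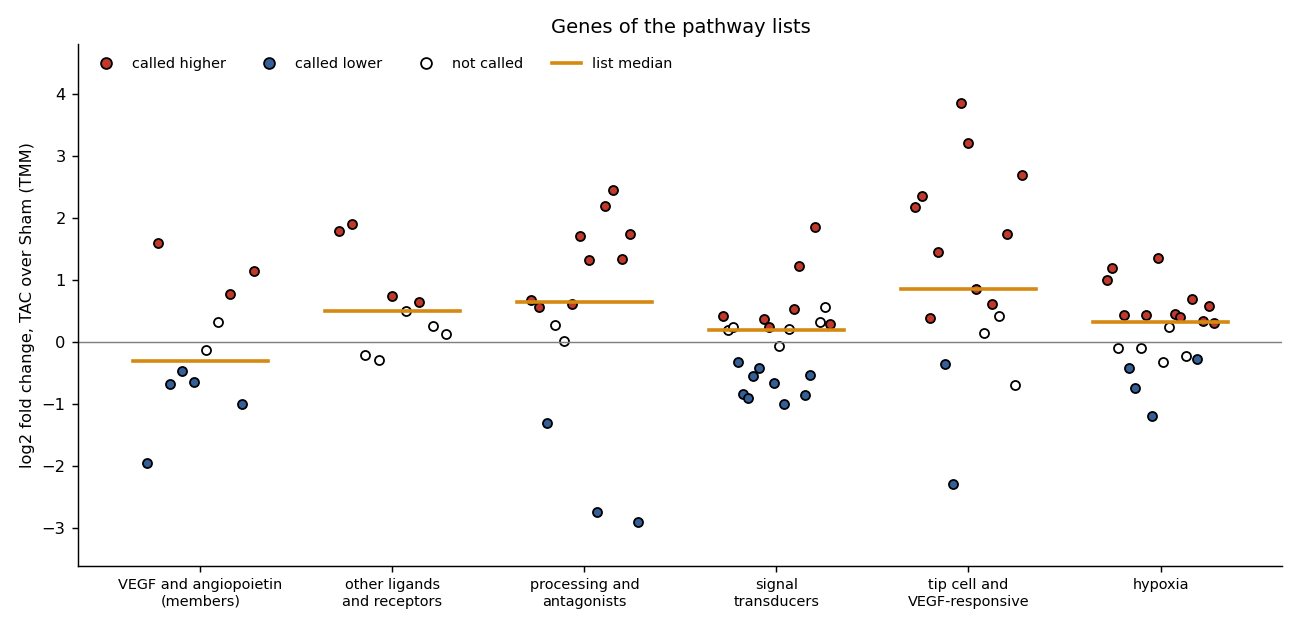
Log2 fold changes (TAC over Sham, TMM scaling) of each tested gene in the 10-gene set and the 5 other lists, coloured by the edgeR call, with the list median as a bar. Medians run from -0.30 for the 10 genes to 0.85 for tip cell and VEGF-responsive genes, and each list holds calls in both directions except the other ligands and receptors, where 4 rose and 0 fell.

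Markers of vascular cell types did not move together. Cardiac capillary genes, of which 2 were called higher and 4 lower, had a summed CPM of 859 to 1199 in TAC and 1594 to 2165 in Sham. Arterial genes had 4 higher and 1 lower of 7 (299 to 591 CPM in TAC, 103 to 147 in Sham), and pericyte genes 6 higher and 2 lower of 9 (654 to 814 CPM in TAC, 432 to 500 in Sham). Most of the arterial sum in TAC was the single gene Fbln5, at means of 254 CPM in TAC and 38.2 in Sham. Lymphatic genes had 1 higher and 4 lower of 5 tested (59.6 to 101 CPM in TAC, 139 to 209.5 in Sham). In Sham most of that sum was Lyve1 and Prox1, at means of 77.8 and 63.3 CPM, against 12.5 and 40.6 in TAC. Prox1 was not called by library size alone (log2 fold change -0.29, adjusted p = 0.21 by edgeR). Whether lymphatic cells were fewer was not tested. Endocardial genes had 0 higher and 3 lower of 6 (515 to 827 CPM in TAC, 627 to 1224 in Sham), and venous genes 3 higher and 1 lower of 6 (538 to 913 CPM in TAC, 371 to 709 in Sham). By library size alone the higher and lower calls were 3 and 4 for capillary, 6 and 0 for arterial, 6 and 2 for pericyte, 1 and 3 for lymphatic, 1 and 2 for endocardial and 4 and 0 for venous genes. None of these genes was at 0 in all libraries, and the most abundant were Cd36, Fbln5, Rgs5, Prox1, Npr3 and Vwf in the same order of lists. The part of these cell types in the differences of the 10 genes was not tested.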

How the data were processed

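The authors deposited raw whole-number counts by gene symbol in 1 table for each library. Per the submitters' processing notes, STAR and bcl2fastq were used with mm10; no versions are named. No source used here names the counter, the strand setting or the annotation, and the labels and the design text name different RNA and library kits. The 5 closing tallies name no gene and stayed out of library sizes and tests; in TAC and Sham, reads in no gene averaged 3.76% and 3.12% of all tallied reads, ambiguous reads 5.79% and 4.31%, and multiply aligned reads 13.4% and 15.8%.

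Counts were tested with edgeR 4.0.16 in R 4.3.3 (TMM factors, filterByExpr, robust quasi-likelihood F test, group as the only term), fitted over 15175 genes with Benjamini-Hochberg adjustment and a threshold of 0.05, and checked on simulated data. SE is the log2 fold change divided by the square root of F. CPM uses effective library sizes. Library-internal log2 ratios of counts plus 0.5 were compared by exact permutation over 252 regroupings. Alternatives were other scalings, filters, DESeq2 1.42.0, limma 3.58.1 voom, a replicate block and omitted libraries. Gene coordinates and exon lengths are from GENCODE M21 (GRCm38, the assembly also called mm10), and promoter sequences from RefSeq.

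The genes and the 18 other lists were chosen with earlier results of these data known. The text names each of the 10 members, all genes of the other ligand and receptor list, and up to 4 called genes per direction with the smallest adjusted p in each pathway list, and the most abundant gene of marker lists; 1 gene that this rule selects is not reported here. Other genes named, among them Pecam1, Cdh5 and the capillary genes, were chosen after their values were seen. No library was left out.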

Additional observations from a re-analysis of the deposited data

Results flagged for a closer look

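Angpt1 in Sham replicate 3, at 433 CPM, stood far from the other Sham libraries, which lay between 111 and 197 CPM. The gap to its nearest neighbour was 0.733 of the range of the 5 Sham libraries, above the limit of 0.71 used for 5 values. Of 42 sets of 5 values examined (10 genes and 11 ratios in both groups) this was the 1 that stood out, and chance alone flags about 1 in 20. The log2 Angpt2/Angpt1 ratio of that library was -6.63.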

How the results depend on the processing

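With library size as the only scaling, 7741 genes were called higher and 1929 lower, 3 members lower and 11 pathway genes lower, against 4383, 4233, 5 and 18 with TMM factors. Log2 fold changes of Pgf (-0.28) and Kdr (-0.10) then missed the threshold, Tie1 (0.68) passed it, and Dll4 (0.0017) and Pdk1 (0.093) changed sign. The median of all genes was 0.37 under this scaling and 0.01 with TMM factors. Tie1 also passed with upper-quartile factors (0.38) and without both shallow Sham libraries (0.50). Without those libraries Pgf (-0.57) and the Angpt2/endothelial ratio (1.24) missed the threshold and Vegfc/Vegfa (0.50) passed. With Pecam1 and Cdh5 as the denominator Kdr (-0.48) and Tek (-0.17) missed it and Tie1 (0.32) passed. The cause was not tested. Leaving out 1 library at a time gave 0.24 to 0.46 for Tie1, 0.28 to 0.43 for Vegfc/Vegfa and 0.072 to 0.19 for Tie1/endothelial, and members called stayed between 3 and 4 higher and at 5 lower.

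The replicate numbers showed no sign of pairing libraries, since deviations of same-numbered libraries correlated at -0.04 to 0.08 and no TAC library correlated best with the Sham library of its number. The labels do not say whether the numbers pair libraries, and low correlations cannot exclude it. With the replicate block 4103 genes were higher and 3917 lower, and no member's call changed. For the ratios the block leaves 32 sign flips with a smallest p of 0.0625, so no ratio could pass. With 5 libraries in each group the mean paired difference equals the difference of means by arithmetic, whatever the pairing, so its value checks nothing. The differences stood at 3.50 (Angpt2/Angpt1), 1.78 (Vegfa/Vegfb), -1.47 (Pgf/Vegfa), -0.49 (Tek/Tie1), -0.68, -0.92, -0.37 and 1.34 (Kdr, Flt1, Tek and Angpt2 over endothelial markers). Depth limits Pgf, Vegfc and Angpt2 most, with 119, 84 and 88 reads in the library with the fewest.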

Other observations

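Markers of the remaining cell types varied by list. Their calls stand against 28.9% of all tested genes called higher and 27.9% lower with TMM factors, and 51% and 12.7% by library size alone. Summed CPM overlapped between the groups for fibroblast, smooth muscle and mesothelial markers. All 6 macrophage markers were called higher, with a summed CPM of 283 to 509 in TAC and 152 to 239 in Sham. All 6 proliferation genes were higher (122 to 423 CPM in TAC, 2.40 to 18.9 in Sham). Fibroblast markers split into 3 higher and 2 lower of 7 (3416 to 4980 CPM in TAC, 4185 to 6167 in Sham), with Col1a1 up by 2.85 (SE 0.33) and Gsn down at -1.71 (SE 0.21) on the log2 scale. Smooth muscle markers had 2 higher and 1 lower of 6 (240.1 to 452 CPM in TAC, 228 to 292 in Sham), and mesothelial markers 1 higher and 0 lower of 6 (143 to 359 CPM in TAC, 94.9 to 338 in Sham). The most abundant markers were C1qa, Top2a, Gsn, Smtn and Upk3b in the order of these lists. The mesothelial count ranged from 0 to 2 over the alternatives. By library size alone the higher and lower calls were 6 and 0 for macrophage, 6 and 0 for proliferation, 4 and 1 for fibroblast, 3 and 1 for smooth muscle and 2 and 0 for mesothelial genes. Whether these cells had a part in the differences of the VEGF and angiopoietin genes was not tested.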
